A study of Lachancea kluyveri with 16 samples.

Results

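The left chromosome C region of the yeast Lachancea kluyveri was described here as the genes whose locus tags start with SAKL0C and carry a number below 11000. The 15 lowest tags of the chromosome were left out, CHA1 (SAKL0C00418g) among them, and so was SAKL0C02112g. This left 442 of the 5316 genes with a probe on the array, and 439 of them were among the 5267 genes bright enough to be tested. The members that were not tested were SPS2 (SAKL0C00968g), MUC1 (SAKL0C03894g) and SAKL0C10208g, which were well above background on 6, 2 and 5 of the 16 arrays. Tag numbers rise along the chromosome, so the cut is by gene order, and the exact end of the GC-rich stretch was not located here. The genes used for comparison were the 124 tested genes on the rest of chromosome C and those on the 7 other chromosomes.

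RNA came from 4 groups of 4 cultures each, every culture on its own single-colour array. The wild type (WT) was the strain JYL1897, MATa ura3, and the mutant was derived from it and carries SEF1-VP16::FRT, so that its Sef1, a transcription factor, bears the VP16 activation domain. Cells of each strain were grown overnight in YPD at 28 °C, diluted to 0.2 OD600 per ml into YPD (glucose) or YPGly (a non-fermentable carbon source) and harvested after 5.5 h at 30 °C. All SEF1-VP16 cultures were of 1 strain, so an effect of the fusion and any other difference of that strain cannot be told apart, and the arrays labelled YPD shared one slide and those labelled YPGly another, so that a medium effect cannot be told apart from a slide effect. Each strain likewise held its own row of the slides. Media are named here as on the sample labels, and this naming is in doubt. For EMI5, GPD1, BRX1 and SAKL0C01276g, the study gives strain differences under YPGly of like size to those found here under the YPD label. If the medium labels were exchanged, every medium effect below would change its sign and every strain effect would belong to the other medium.

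The left arm of this chromosome is known as a compositional island: its base composition is far richer in G and C than the rest of the genome, and it carries the mating-type locus. The arm holds ordinary housekeeping genes as well. The names used below are those of the Saccharomyces cerevisiae genes that the study's annotation pairs with each tag. The roles given are therefore those known from S. cerevisiae. An ortholog name was at hand for 293 of the 439 tested members.

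Signal is given as the log2 of the processed spot signal minus the array's 75th percentile, so that 0 is the 75th percentile of the array, and each gene is represented by the brighter of its 2 probes. On this scale the median of the members' mean signals was −0.55 (quartiles −1.65 and 0.44), against −1.17 for the 4828 tested genes outside the region. The medians of the 7 other chromosomes lay between −1.25 and −0.95, and that of the rest of chromosome C was −1.39. Of the members, 31.7% fell in the brightest quartile of all tested genes and 15.5% in the dimmest, compared with 24.4% and 25.9% of the genes outside the region. The brightness of a spot depends on its probe as well as on the transcript, and probe base composition was not analysed here, so these are differences in probe signal and their part in transcript level was not tested.

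The higher signal was found on every array. The median of the members exceeded the median of the other genes by 0.84, 0.84, 0.61 and 0.72 on the WT arrays labelled YPD (mean 0.75 ± 0.11, SD, n = 4), and by 0.70, 0.71, 0.66 and 0.62 on the SEF1-VP16 arrays labelled YPD (0.67 ± 0.04). In YPGly the excess was 0.60, 0.45, 0.50 and 0.46 on the WT arrays (0.50 ± 0.07) and 0.47, 0.50, 0.35 and 0.50 on the SEF1-VP16 arrays (0.46 ± 0.07). All 8 arrays labelled YPD thus lay above all 8 labelled YPGly, by a narrow margin at the closest pair, while the strains overlapped within each medium. With the dimmer probe of each gene the members exceeded the other genes by 0.83 instead of 0.62 over all arrays.

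**Figure D1:**
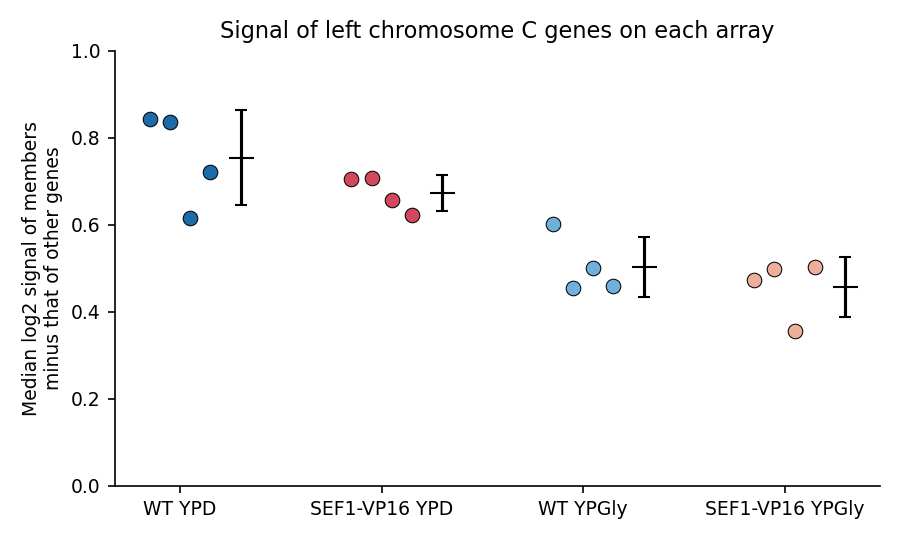
Median log2 signal of the 439 tested members minus the median of the 4828 other tested genes (vertical axis, log2 units) for each of the 16 arrays, by group. Points are arrays, bars to the right are the mean and SD of 4 arrays, and the arrays labelled YPD (0.61 to 0.84) lie above those labelled YPGly (0.35 to 0.60).

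The brightest members were TDH3 (SAKL0C10186g), a glyceraldehyde-3-phosphate dehydrogenase of glycolysis, the cell wall genes PIR3 (SAKL0C05566g) and PIR1 (SAKL0C05544g), ADH1 (SAKL0C10164g), the alcohol dehydrogenase of fermentation, and SAKL0C01298g, with mean log2 signals of 4.68, 4.54, 4.26, 4.11 and 3.99. TDH3 and ADH1 are neighbours, as are PIR1 and PIR3. ADH1 measured 4.16, 3.65, 3.88 and 3.97 in WT and 3.09, 3.91, 3.09 and 3.63 in SEF1-VP16 on YPD, and 4.45, 4.23, 4.62 and 4.36 in WT and 4.47, 4.68, 4.44 and 5.09 in SEF1-VP16 on YPGly. Its arrays did not overlap between media in either strain, and it was called higher in YPGly in SEF1-VP16, by 1.24 (SE 0.18, adjusted p 1.68e-05), with 0.50 in WT, below the 1.5-fold limit. TDH3 was called in no comparison, and 1 of its SEF1-VP16 YPGly spots was an outlier spot and treated as missing. PIR1, PIR3 and SAKL0C01298g were called lower in YPGly in WT, at −0.86, −0.67 and −0.80, and in SEF1-VP16 stood at −0.47, −0.49 and −0.39, under 1.5-fold. The WT calls of all 3 were lost with quantile normalization (−0.56, −0.32 and −0.53), that of PIR3 also without WT YPD replicate 1 (−0.48), and that of SAKL0C01298g also with the other probe (−0.40), by the methods' t-test after adjustment (0.0524) and without WT YPGly replicate 3 (−0.56).

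The strain comparison asks which genes change when Sef1 carries the activation domain. Calls required 1.5-fold or more and an adjusted p no higher than 0.05 (limma, Benjamini-Hochberg over the 5267 tested genes). Under the YPD label, SEF1-VP16 had 5 members called higher and 1 called lower than WT, or 1.14% and 0.228% of 439, where 1.48% and 0.646% of all tested genes were called. Under the YPGly label it had 0 called higher and 1 called lower, where 1.61% and 0.684% of all tested genes were called. At an unadjusted p under 0.05 by the same limma fit, 36 members (8.20%) lay higher and 35 (7.97%) lower on YPGly, against 13.2% and 8.20% of all tested genes, and the methods' t-test called 2 members without adjustment and 0 after it. On YPD 31 members (7.06%) lay higher and 50 (11.4%) lower at that level, against 11.1% and 9.42% of all tested genes, so that the falls outnumbered the rises there although most of the calls were rises. The test of whether the strain effect differed between the media called 2 members higher and 0 lower, where 0.646% and 0.494% of all tested genes were called. In each of these comparisons the share of members called was below that over all genes.

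EMI5 (SAKL0C08426g), also known as SDH5, an assembly factor of succinate dehydrogenase in the tricarboxylic acid cycle, had the largest strain effect in the region. On YPD it measured −0.66, −0.84, −0.48 and −1.27 in WT and 0.39, 0.36, 0.41 and 0.27 in SEF1-VP16. Every mutant array lay above every wild-type array, and the difference was 1.17 (SE 0.17, adjusted p 6.52e-04), or 2.25-fold. Of the alternatives, only the methods' t-test after adjustment lost this call (0.0615). In YPGly the values were −0.94, −0.62, −1.20 and −1.19 in WT and −0.29, −0.57, −0.02 and −0.69 in SEF1-VP16. Here the arrays overlapped, and the difference of 0.59 (SE 0.17) had an adjusted p of 0.0509, just outside the threshold. The strain effect was not shown to differ between the media (interaction −0.57, adjusted p 0.287). With the replicate number as a block the YPGly difference was called (adjusted p 0.0295). The gene's other probe gave 1.16 on YPD and 0.55 on YPGly.

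BRX1 (SAKL0C10428g) acts in the assembly of the large ribosomal subunit. It measured −2.41, −2.03, −2.01 and −2.65 in WT and −1.40, −1.77, −1.24 and −1.47 in SEF1-VP16 on YPD, without overlap, a difference of 0.81 (SE 0.15, adjusted p 0.00372). On YPGly the values were −2.23, −1.90, −2.11 and −1.89 in WT and −1.49, −1.61, −1.25 and −1.52 in SEF1-VP16. The strains were again apart, but the difference of 0.56 (adjusted p 0.0327) was below 1.5-fold.

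GPD1 (SAKL0C07502g) encodes the glycerol-3-phosphate dehydrogenase that makes glycerol. On YPD it measured 2.57, 2.31, 2.15 and 2.19 in WT against 3.08, 3.12, 2.99 and 2.67 in SEF1-VP16, and on YPGly 3.36, 3.16, 3.32 and 3.19 against 3.44, 3.51, 3.45 and 3.69. The mutant lay above the wild type without overlap in both media, by 0.66 (SE 0.11, adjusted p 0.00229) on YPD and 0.27 (adjusted p 0.183) on YPGly. GPD1 was also called higher on YPGly than on YPD in WT, by 0.95 (adjusted p 1.35e-06), so the wild type on YPGly was above the mutant on YPD on every array.

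MPD2 (SAKL0C09988g), a protein disulfide isomerase of the endoplasmic reticulum, was likewise higher on YPGly in WT, by 1.01. It measured −1.48, −1.45, −1.31 and −1.75 in WT and −1.01, −0.76, −0.76 and −1.07 in SEF1-VP16 on YPD, and −0.39, −0.38, −0.56 and −0.59 in WT and −0.44, −0.55, −0.43 and −0.69 in SEF1-VP16 on YPGly. The strains were apart on YPD (0.59, SE 0.11, adjusted p 0.00370) and overlapped on YPGly (−0.05, adjusted p 0.872). The difference on YPD was barely over 1.5-fold, at 1.51, and fell under that limit with median centring (0.54), quantile normalization (0.54) or the other probe (0.54), and without WT replicate 4 or SEF1-VP16 replicate 2 or 3 of YPD, where it was 0.51, 0.55 and 0.55. The interaction of −0.64 had an adjusted p of 0.0510.

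SAKL0C01276g, paired with YDR514C, whose role is not well known, measured 0.06, 0.18, −0.32 and −0.05 in WT and 0.78, 0.69, 0.64 and 0.62 in SEF1-VP16 on YPD. The mutant arrays lay above all others of this gene, and the difference was 0.71 (SE 0.10, adjusted p 6.06e-04). Of the alternatives, only the methods' t-test after adjustment lost this call (0.0734). On YPGly the values of −0.09, −0.30, −0.21 and −0.28 in WT and 0.06, 0.03, −0.16 and 0.20 in SEF1-VP16 overlapped, with a difference of 0.25 (adjusted p 0.170). The other probe gave 0.73 on YPD and −0.06 on YPGly, and with it the interaction was called (−0.79, adjusted p 0.0121), where the brighter probe gave −0.46 (adjusted p 0.147).

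ESBP6 (SAKL0C09614g), a monocarboxylate permease-like protein of the plasma membrane, was the member called lower in SEF1-VP16 on YPD. It measured −0.57, −0.57, −0.84 and −0.54 in WT and −1.53, −1.48, −1.39 and −1.68 in SEF1-VP16 on YPD, a fall of 0.89 (SE 0.12, adjusted p 2.04e-04) without overlap. On YPGly both strains were lower (−2.28 against YPD in WT), at −2.81, −2.95, −3.09 and −2.80 in WT and −2.78, −2.84, −2.93 and −2.37 in SEF1-VP16, and overlapped (0.18, adjusted p 0.411). The strain effect differed between the media by 1.07 (SE 0.17, adjusted p 0.00433), and the other probe gave 1.02.

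PUF6 (SAKL0C09328g), an RNA-binding protein that acts in ribosome assembly and in localized translation, was the other member whose strain effect differed between media. It measured −0.33, −0.62, −0.65 and −0.64 in WT and −0.81, −0.78, −0.69 and −0.47 in SEF1-VP16 on YPD, and −1.04, −1.07, −1.06 and −0.93 in WT and −0.64, −0.51, −0.54 and −0.47 in SEF1-VP16 on YPGly. The strains overlapped on YPD (−0.13, adjusted p 0.454) and were apart on YPGly (0.48, SE 0.09, adjusted p 0.00549, under 1.5-fold). The interaction of 0.61 (SE 0.13, adjusted p 0.0287) was lost in 10 of the 16 fits that left out 1 array, where it ranged from 0.54 (without WT YPD replicate 1, adjusted p 0.0372, under 1.5-fold) to 0.61. With the other probe it was 0.50 (adjusted p 0.0948).

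SAKL0C06688g, for which no ortholog name was at hand, was the only member called lower in SEF1-VP16 on YPGly. It measured −6.90, −6.89, −6.86 and −6.93 in WT and −7.60, −7.89, −7.74 and −7.09 in SEF1-VP16, a difference of −0.69 (SE 0.20, adjusted p 0.0471). The groups did not overlap, but only 1 of the 4 mutant spots was well above background. The call was lost in 11 of the 16 fits that left out 1 array and with the replicate number as a block (adjusted p 0.0646), the other probe gave −0.17, and normexp background correction turned the sign to 0.65 (adjusted p 0.457).

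**Figure D2:**
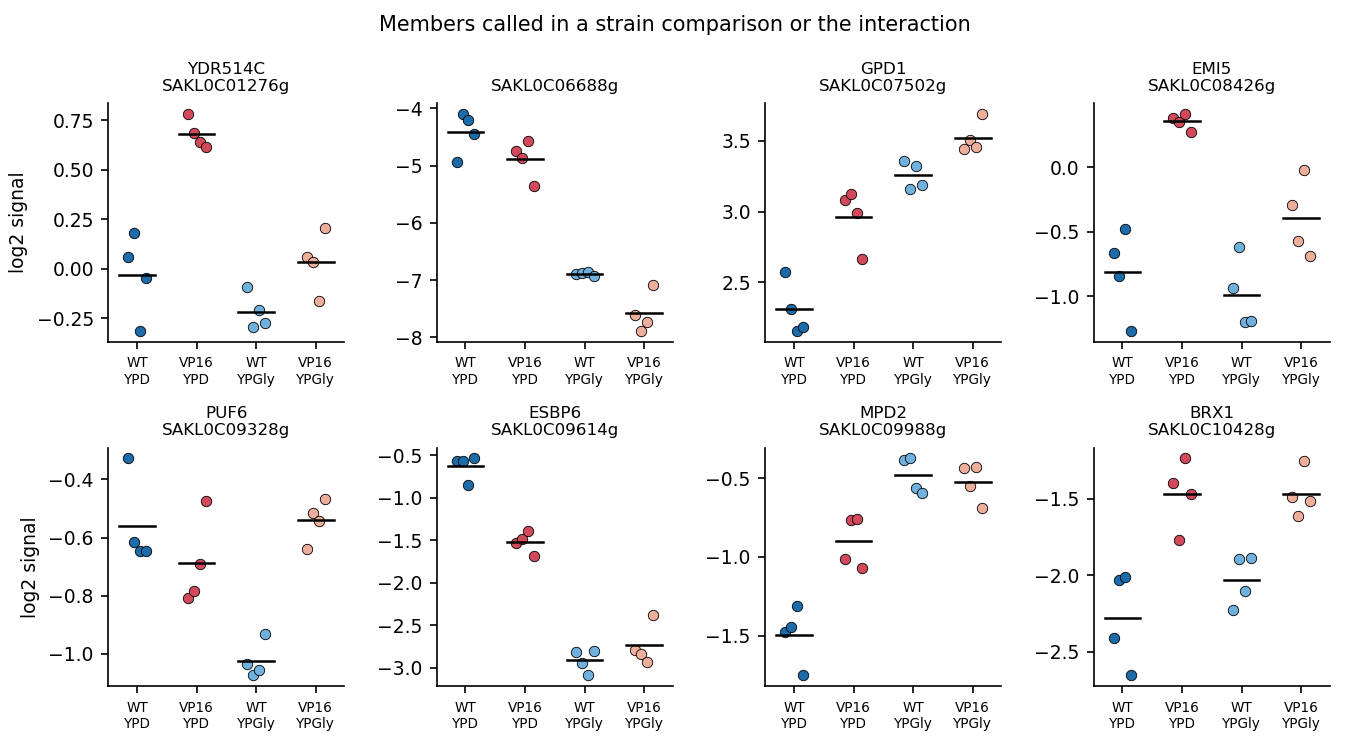
Log2 signal (vertical axes, each panel on its own scale) of the 8 members called in a strain comparison or the interaction, with WT and SEF1-VP16 (VP16) in YPD and YPGly along the horizontal axis. Points are arrays and lines are means of 4 arrays, and EMI5 on YPD shows the widest gap between the strains, 1.17.

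Sef1 binding sites had been mapped in separate chromatin samples, and the genes assigned to a Sef1 peak were taken from that list without its values. Of the 439 tested members, 198 (45.1%) were on the list, against 520 of the 4828 genes elsewhere (10.8%). All 5 members called higher in SEF1-VP16 on YPD were on it, which is 2.53% of the 198, against 39 of 520 (7.50%) outside the region. ESBP6, PUF6 and SAKL0C06688g were not. On YPGly 0 of the 198 listed members were called higher, against 30 of 520 (5.77%) outside. At an unadjusted p under 0.05 by limma, 18 of the 198 lay higher and 20 lower there, against 110 and 49 of the 520. The median strain effect of the listed members was −0.04 on YPD and −0.02 on YPGly, and that of the listed genes outside the region was 0.03 and 0.08. The listed members were brighter than the other members, with median signals of −0.02 and −0.86, and this also held outside the region, where the medians were 0.18 and −1.26. The part of signal in the density of listed genes was not tested.

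Across all members the strain effect was small. The median was −0.04 on YPD (quartiles −0.16 and 0.10) and −0.02 on YPGly (−0.14 and 0.12), against 0.03 and 0.01 for the other genes, and the region's median was below those of the 7 other chromosomes in both media (0.01 to 0.04 on YPD and −0.00 to 0.03 on YPGly). The rest of chromosome C had medians of 0.01 on YPD and 0.00 on YPGly. Its 37 tested genes with tags from 11000 to below 12000 were lower, at −0.05 and −0.08. The 16 genes left out of the region had −0.12 and −0.19. On YPD 172 of 439 members were above 0, or 39.2%, where 55.0% of the other genes were. Relative to the other genes the members were lower by −0.07 on YPD. Leaving out single arrays moved this difference between −0.11 (without WT replicate 3) and −0.05 (without WT replicate 1). The members' signal excess per array averaged 0.75 in WT and 0.67 in SEF1-VP16 on YPD. Single arrays of one group varied in this excess with a pooled SD of 0.08. A strain difference of the region as a whole was not tested.

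The medium comparison held most of the calls in the region. In WT, 74 members were called higher and 116 lower in YPGly, or 16.9% and 26.4%, where 27.4% and 20.5% of all tested genes were called. In SEF1-VP16, 71 were higher and 110 lower, or 16.2% and 25.1%, where 26.6% and 19.9% of all tested genes were called. On the other chromosomes the share called higher in WT lay between 23.9% and 31.0% and the share called lower between 18.1% and 22.4%, and in SEF1-VP16 between 23.8% and 31.1% and between 17.9% and 20.2%. In both strains the region thus had fewer rises and more falls, as a share, than each of the 7 other chromosomes. With the medium labels exchanged, this would read as more rises and fewer falls. The rest of chromosome C, with 29.0% higher and 18.5% lower in WT, lay among the other chromosomes. Of the members called higher, 58 were called in both strains, and of those called lower, 96, with 0 called in opposite directions.

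The median medium effect of the members was −0.08 in WT and −0.06 in SEF1-VP16, against 0.17 and 0.14 for the genes outside the region. The 7 other chromosomes had medians from 0.12 to 0.22 in WT and from 0.10 to 0.19 in SEF1-VP16, and the rest of chromosome C had 0.25 and 0.16. The members thus lay −0.26 and −0.20 below the other genes, 2 differences that rest on the same fit and on slides that changed with the medium. Centring the arrays on their medians moved the median of all genes from 0.15 to 0.04 in WT and the members to −0.20, with 56 called higher and 140 lower (22.2% and 24.0% of all tested genes), while the distance from the other genes stayed at −0.26, since a centring moves all genes alike.

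**Figure D3:**
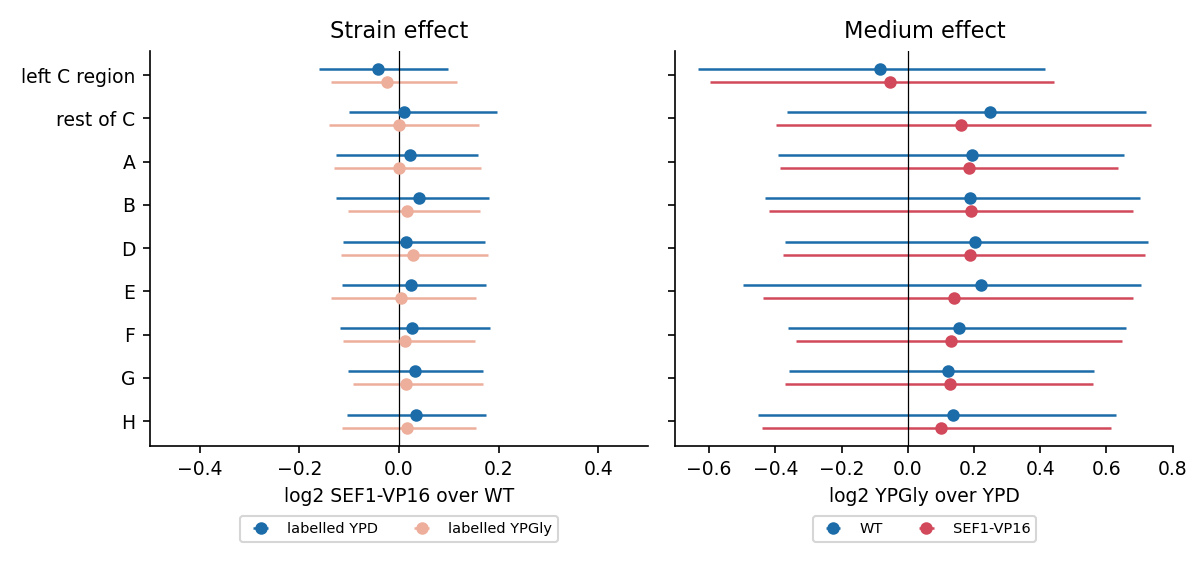
Median (points) and quartiles (bars) of the strain effect (left, log2 SEF1-VP16 over WT) and of the medium effect (right, log2 YPGly over YPD) over the tested genes of the left chromosome C region, the rest of chromosome C and the 7 other chromosomes. For the medium effect the region's medians, −0.08 in WT and −0.06 in SEF1-VP16, are the only ones below 0.

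Because the members were brighter, the medium effect was also set against that of other genes of like signal. From the dimmest to the brightest quartile of signal the members' median in WT was −0.12, 0.05, −0.17 and −0.07, and that of the other genes was 0.09, 0.19, 0.18 and 0.20. In each quartile the members were the lower of the pair. In SEF1-VP16 the members' medians were −0.04, −0.05, −0.13 and −0.04, against 0.03, 0.17, 0.15 and 0.22. The members on the Sef1 list and the members off it had like medians in WT, −0.05 and −0.10.

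The medium effect varied along the region. In steps of 1000 tag numbers the median medium effect in WT of 23 to 45 members lay between −0.29 (tags from 2000) and 0.16 (tags from 1000), and 7 of the 11 steps were below 0 by more than 0.01. The steps from 11000, 12000 and 13000, outside the region, had medians of 0.44, 0.21 and 0.23. The median signals of the last 3 steps in the region, −0.97, −0.87 and −0.84, were below the −0.47 of the step from 11000, and the brightest step was that from 1000, at 0.10. Sef1-listed genes made up 30 of 42 members in that brightest step and 8 of 40 in the step from 9000.

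**Figure D4:**
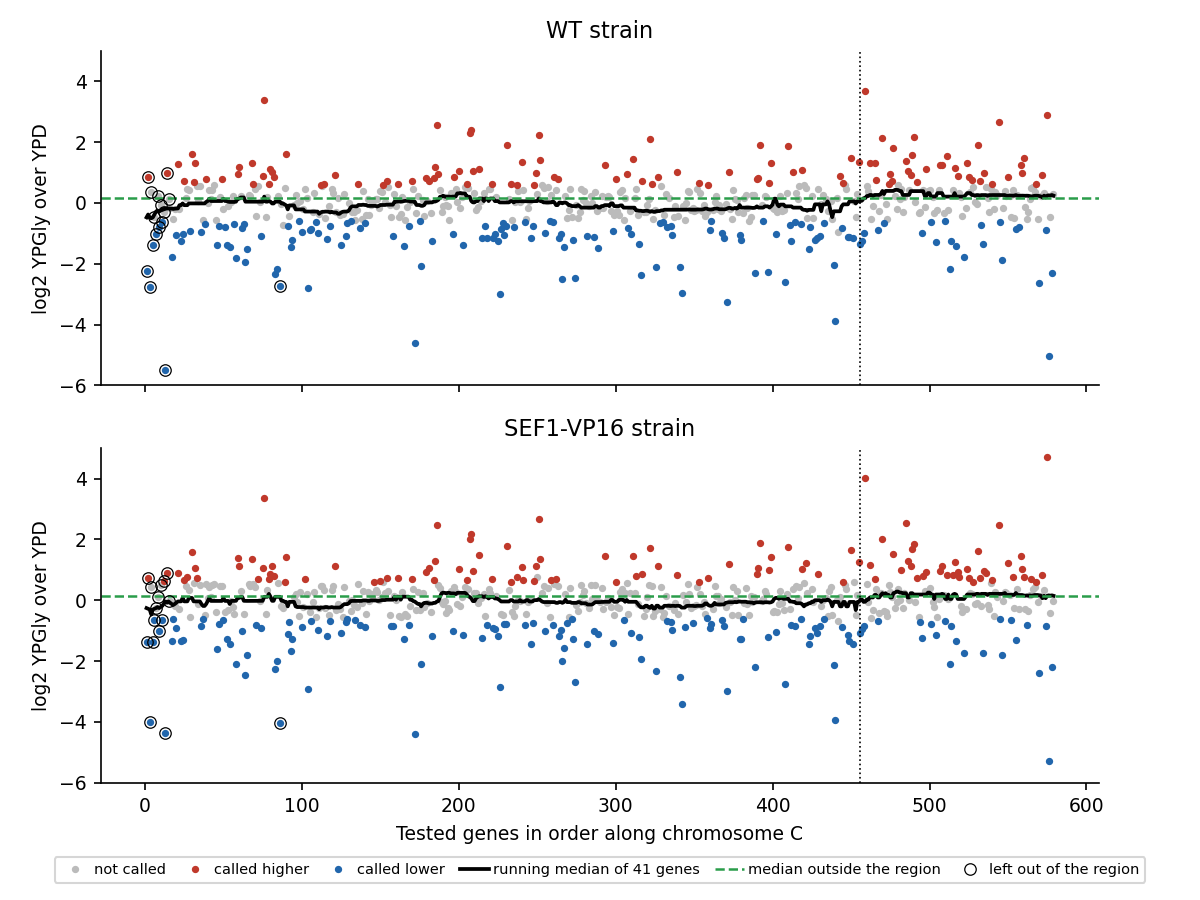
Medium effect (log2 YPGly over YPD) of the 579 tested genes of chromosome C in gene order, in WT (top) and SEF1-VP16 (bottom), with genes called higher or lower in colour, the running median of 41 genes as a black line and the median of the genes outside the region as a dashed line. Circled genes were left out of the region, the dotted line marks its end, and the running median lies mostly below the dashed line (0.17 in WT, 0.14 in SEF1-VP16) to the left of it and near or above it to the right.

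At the left end the last genes left out were CHA1, VAC17 (SAKL0C00440g) and MRC1 (SAKL0C00462g), with medium effects in WT of −5.50, 0.99 and 0.12, and the first members were KRR1 (SAKL0C00484g), SAKL0C00506g and SAKL0C00528g, with −0.18, −1.78 and −0.53. At the right end the last members, SAKL0C10934g, SAKL0C10956g and SAKL0C10978g, had −0.47, 0.29 and 1.35, and the first genes beyond, SAKL0C11000g, SAKL0C11022g and GPI18 (SAKL0C11044g), had −1.34, −1.25 and −0.98. The signs were thus mixed on the inner side of the right end and all negative just beyond it. The 16 genes left out had a median medium effect in WT of −0.56, below that of the members.

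The deepest fall in the region was that of SAKL0C04136g, paired with YKL107W, a putative aldehyde reductase. It measured 0.52, 0.42, 0.05 and 0.19 in WT and −0.04, 0.02, −0.01 and −0.26 in SEF1-VP16 on YPD, and −4.39, −4.38, −4.31 and −4.23 in WT and −4.69, −4.39, −4.53 and −4.27 in SEF1-VP16 on YPGly. The media were far apart in both strains, by −4.62 (SE 0.11, adjusted p 4.18e-15) in WT, or 24.6-fold, and by −4.39 in SEF1-VP16.

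Next came SAKL0C10626g, one of a pair of members paired with ARA1, an aldo-keto reductase that oxidizes arabinose. It measured 3.25, 3.33, 2.92 and 2.83 in WT on YPD and −0.66, −0.87, −0.87 and −0.84 on YPGly, a fall of 3.89 (SE 0.13, adjusted p 1.47e-13), and it fell by 3.93 in SEF1-VP16. The other ARA1 gene, SAKL0C09922g, moved the opposite way: −1.13, −1.07, −1.06 and −1.44 in WT on YPD and 1.13, 0.14, 0.79 and 0.70 on YPGly, a rise of 1.86 (SE 0.18, adjusted p 8.92e-08). Neither gene's groups overlapped.

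ETR1 (SAKL0C08910g), an enoyl thioester reductase of mitochondrial fatty acid synthesis, measured 3.11, 2.95, 2.69 and 2.76 in WT on YPD and −0.35, −0.49, −0.30 and −0.45 on YPGly, a change of −3.27 (SE 0.10, adjusted p 6.63e-14), with −2.99 in SEF1-VP16. The other falls among the 6 largest were those of FMP33 (SAKL0C05522g), a mitochondrial protein without a clear role, at −2.98 in WT and −2.85 in SEF1-VP16, of SAKL0C08272g, at −2.97 and −3.42, and of SAKL0C02508g, at −2.81 and −2.93. SAKL0C02508g was high and uneven on YPD in WT, at 4.82, 2.99, 4.33 and 4.13, and still did not overlap with its values on YPGly, which lay between 0.92 and 1.57.

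The largest rise was that of SAM2 (SAKL0C01870g), an S-adenosylmethionine synthetase. It measured −0.23, −0.42, −0.71 and −0.58 in WT and −0.47, −0.36, −0.21 and −0.26 in SEF1-VP16 on YPD, and 3.00, 2.82, 2.92 and 2.84 in WT and 3.02, 3.04, 2.88 and 3.13 in SEF1-VP16 on YPGly. The rise was 3.38 (SE 0.10, adjusted p 5.28e-14) in WT, or 10.4-fold, and 3.35 in SEF1-VP16. RPS22A (SAKL0C04488g), a protein of the small ribosomal subunit, rose by 2.58 in WT and 2.48 in SEF1-VP16. The neighbouring genes SAKL0C05016g and SAKL0C04994g, both paired with the cell wall protein gene YJL171C, rose by 2.40 and 2.31 in WT. SAKL0C06160g rose by 2.22 in WT and 2.66 in SEF1-VP16, DAL1 (SAKL0C07832g), the allantoinase of allantoin breakdown, by 2.10 and 1.72, and HCH1 (SAKL0C09460g), an Hsp90 cochaperone activator, by 1.91 and 1.89.

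Of 438 pairs of neighbouring tested members, 56 (12.8%) were called in the same direction in WT and 33 (7.53%) in opposite directions. On the 7 other chromosomes these shares lay between 11.1% and 15.1% and between 8.19% and 12.7%. The longest run was of 6 tested members, all called lower in YPGly in WT: JJJ2 (SAKL0C05456g), a J-domain protein, at −1.26, FMP33 at −2.98, PIR1 at −0.86, PIR3 at −0.67, VBA5 (SAKL0C05588g), a plasma membrane transport protein, at −1.05, and SAKL0C05632g at −0.75. In SEF1-VP16, PIR1 and PIR3 of this run were not called.

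The members were also grouped by function in 12 lists, whose counts stand against 27.4% of all tested genes called higher and 20.5% lower in WT, and 26.6% and 19.9% in SEF1-VP16. Cytosolic ribosomal proteins are encoded by 6 members, and 6 of 6 rose in YPGly in WT, with a median of 1.07, and 4 of 6 in SEF1-VP16, with a median of 0.94. RPS14A (SAKL0C04466g) rose by 1.18, RPL37B (SAKL0C01958g) by 1.11 and RPL17A (SAKL0C04840g) by 1.04 in WT. The strain effect was called for 0 of these 6, with medians of 0.40 on YPD and 0.24 on YPGly. The 6 members of the mitochondrial ribosome were called in no comparison, and their medium effects in WT ran from −0.45 to 0.58.

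Of the 14 ribosome biogenesis members, 2 rose and 2 fell in YPGly in WT: EMG1 (SAKL0C02002g), a methyltransferase of the small subunit, by 1.01, and NOP1 (SAKL0C07942g), fibrillarin, by 0.85, while BMT2 (YBR141C, SAKL0C10318g), an rRNA base methyltransferase, fell by 1.23 and RRP7 (SAKL0C01430g), of the small subunit processome, fell by 0.71. Their strain effects on YPGly were small and all above 0, from 0.05 to 0.56 with a median of 0.35, where the median over all tested genes was 0.01. Of the 14, 6 had an adjusted p of at most 0.05 on YPGly, among them BRX1, PUF6 and BMT2, and 0 of these 6 calls at any fold reached 1.5-fold, where 4.46% of all tested genes had such an adjusted p on the higher side. On YPD 9 of the 14 were above 0, with a median of 0.09, and 1, BRX1, had an adjusted p of at most 0.05.

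Respiration and mitochondrial carbon use was represented by 11 members, of which 6 were lower and 2 higher in YPGly in both strains, with a median of −0.83 in WT. Besides ETR1, those lower in WT were YAT1 (SAKL0C07700g), a carnitine acetyltransferase, at −2.36, ACN9 (SAKL0C01452g), another assembly factor of succinate dehydrogenase, at −1.80, DIC1 (SAKL0C03718g), the dicarboxylate carrier, at −1.10, QCR7 (SAKL0C00770g), a subunit of the cytochrome bc1 complex, at −0.93, and COQ6 (SAKL0C03256g), of ubiquinone synthesis, at −0.83. NDI1 (SAKL0C09438g), the internal NADH dehydrogenase, was higher by 0.83 and CCP1 (SAKL0C05786g), cytochrome c peroxidase, by 0.60. The CCP1 call was lost with median centring (0.48) and without WT YPD replicate 2, 3 or 4 or WT YPGly replicate 1 (0.54 to 0.58). In SEF1-VP16, EMI5 was called lower in YPGly (−0.75) and QCR7 was not (−0.54). Genes of this list are known to be used on non-fermentable carbon, and most of those called lay higher on the arrays labelled YPD. With the medium labels exchanged, these genes would lie higher on the non-fermentable source.

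Glycolysis, fermentation and glycerol metabolism had 8 members, and 3 were higher and 1 lower in YPGly in WT: the ARA1 gene SAKL0C09922g, GPM2 (SAKL0C07590g), a homolog of phosphoglycerate mutase, at 1.43, GPD1 at 0.95, and GLG2 (SAKL0C06358g), glycogenin, at −0.63. The ARA1 gene that fell, SAKL0C10626g, was not on this list. The GLG2 call was lost with array weights (−0.58) and without WT YPD replicate 1 (−0.48) or WT YPGly replicate 2 (−0.58). Of the 13 members for synthesis of amino acids, nucleotides and vitamins, 3 were higher and 1 lower, with SAM2 first, then BIO2 (SAKL0C06182g), biotin synthase, at 1.41, and HIS4 (SAKL0C01474g), of histidine synthesis, at 0.95, and with MET2 (SAKL0C02266g), of methionine synthesis, at −1.45. Among 5 amino acid permeases, LYP1 (SAKL0C02728g) was higher by 0.63 and one CAN1 gene, SAKL0C02640g, lower at −0.99. The LYP1 call was lost with median centring (0.52) and without WT YPD replicate 2 or 3 (0.55 and 0.58).

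The mating-type locus lies in this region, and 7 members of the mating list were tested. In YPGly in WT, PRM1 (SAKL0C02200g), a membrane fusion protein of mating cells, rose by 1.60 and FAR1 (SAKL0C05698g), a cell cycle inhibitor of the pheromone response, by 0.61, while FUS1 (SAKL0C01606g), of cell fusion, fell by 1.51 and KAR4 (SAKL0C00660g), a transcription factor of nuclear fusion, fell by 1.04. The FAR1 call was lost with median centring (0.50), with the other probe (0.49) and without WT YPD replicate 3 (0.57). FUS1 measured 0.94, 1.45, 0.70 and 0.94 on YPD and −0.44, −0.58, −0.42 and −0.59 on YPGly in WT. SAKL0C03696g, paired with the mating-type gene HMRA2, was well above background on all 16 arrays and was called lower in YPGly in SEF1-VP16 (−0.83) with −0.47 in WT. STE3 (SAKL0C04972g), a pheromone receptor, was well above background on all 16 arrays at a mean signal of −3.35, and its medium effects of 0.50 and 0.38 were under 1.5-fold. The strain effect was called for 0 of the 7 in either medium. NDJ1 (SAKL0C09394g), a meiotic telomere protein, fell by 2.31 in WT, where 1 YPGly spot was missing, and by 2.20 in SEF1-VP16.

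Among 8 members for DNA replication and histones, the histone H4 gene HHF1 (SAKL0C10714g) was higher by 0.88 in YPGly in WT with overlapping arrays, CDC6 (SAKL0C04378g), a replication licensing factor, was higher by 0.71, and TOF1 (SAKL0C02552g), of the fork protection complex, was lower at −0.86. The CDC6 call was lost under 1 alternative (0.56, under 1.5-fold). Of 8 cell wall members, both YJL171C genes were higher, and KRE9 (SAKL0C04906g), of glucan synthesis, was lower at −1.38, as were PIR1 (SAKL0C05544g) and PIR3. Another gene paired with PIR1, SAKL0C05676g, was not called, at 0.14 in WT and 0.35 in SEF1-VP16. Of 4 members for iron and copper handling, MRS3 (SAKL0C06512g), a mitochondrial iron carrier, was lower in YPGly in both strains, at −1.45 and −1.57, and the strain effect was called for 0 of 4. The members that the study lists as induced by low iron, RCR2 (SAKL0C10890g) and SAKL0C10010g, were lower in YPGly in WT, at −1.16 and −0.64, and were not called between strains.

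**Figure D5:**
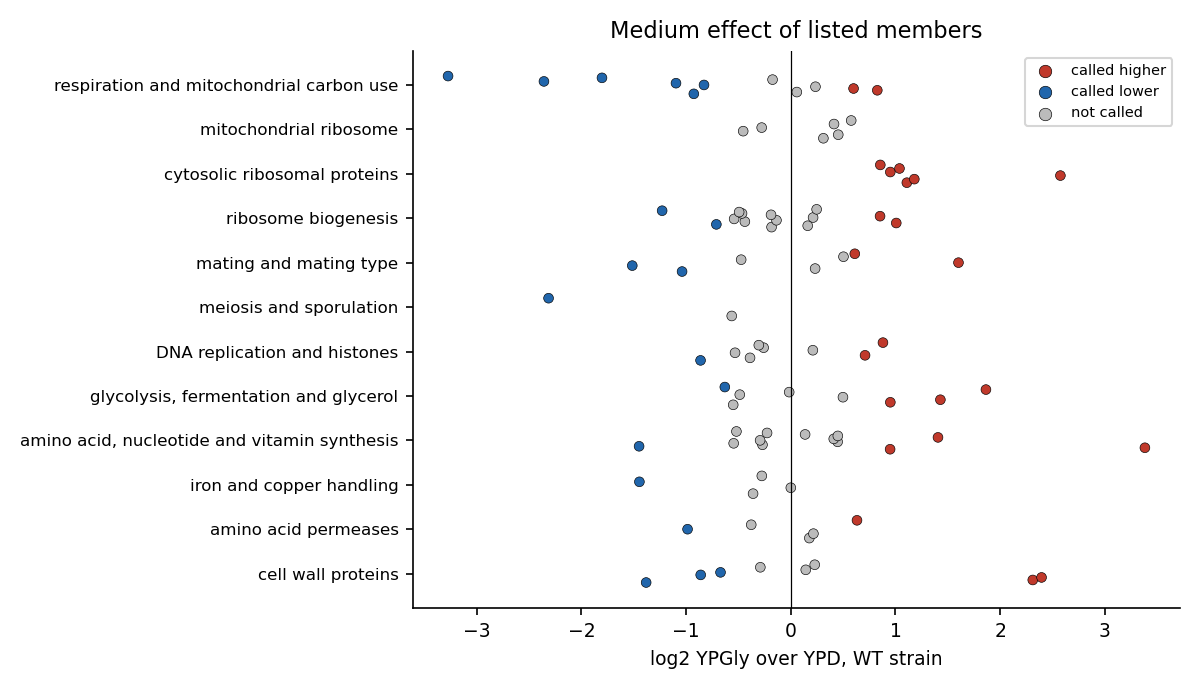
Medium effect in WT (horizontal axis, log2 YPGly over YPD) of each tested member of the 12 lists, one point a gene, coloured where called higher or lower. All 6 cytosolic ribosomal protein genes lie to the right of 0, and 6 of the 11 respiration genes are called lower.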

How the data were processed

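RNA of 16 cultures was measured on single-colour Agilent arrays of L. kluyveri. The authors scanned them with Agilent Feature Extraction 10.5.1.1, and the deposited intensity per spot is its background-subtracted processed signal. The authors' deposited table of log2 values, normalized to the 75th percentile, served as an alternative. From the intensities, log2 was taken and each array's 75th percentile over the 10620 gene probes subtracted. Spots flagged as non-uniform outliers were treated as missing (10 values among tested members). The brighter of the 2 probes per gene was kept, and a gene was tested if, in 1 or more of the groups, every array's spot of that probe was well above background.

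All 4 groups were fitted in one model in limma 3.58.1 (R 4.3.3), with contrasts for strain in each medium, medium in each strain, and their interaction. A call needed an adjusted p (Benjamini-Hochberg, 5267 genes) of at most 0.05 and 1.5-fold. The labels call the cultures biological repeats. RNA of whole cultures was measured, so fewer responding cells and less RNA per cell cannot be told apart. Per array, 94.5% or more of the gene probes were well above background and 0 were saturated. The precision of each value is limited by its 4 arrays per group. Array pairs within groups correlated at 0.977 to 0.996. On simulated data for the strain comparison on YPD over 5267 genes, 91 of 100 genes changed by 1 log2 unit and 79 of 100 changed by 0.785 were recovered. In the same simulation 4 unchanged genes were called.

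The members and lists were chosen with earlier results of these data known. Named genes were members called between strains or in the interaction, the 6 largest rises and falls between media in each strain without overlap, called list members and some others, the 5 brightest, 3 genes at each side of both ends, and the longest run. Alternatives covered centring, quantile normalization, normexp (on median signals), the other probe, no dim filter, cross-hybridising probes, array weights, the replicate block, fewer arrays, and the methods' t-test. List memberships and names came from the study's tables, and no value of those tables entered the fits or calls. The authors' own strain comparisons were used only to check the naming of the media.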

Additional observations from a re-analysis of the deposited data

Results flagged for a closer look

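The strain effect differed between the media by 1.07 for ESBP6 (SAKL0C09614g) and by 0.61 for PUF6 (SAKL0C09328g), by the interaction term of the limma fit (adjusted p 0.00433 and 0.0287). In both genes 1 WT YPD array stood apart from the other 3: replicate 3 of ESBP6 at −0.84 (gap 0.887 of the group's range) and replicate 1 of PUF6 at −0.33 (gap 0.902). ESBP6 stayed called in every fit that left out 1 array, and PUF6 did not without the array that stood apart.

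Among 139 combinations of a named member and a group of 4 arrays, 8 had 1 array far from the others, and chance flags about 1 in 20 groups. The other 6 were YJL171C (SAKL0C05016g) in SEF1-VP16 YPD replicate 1, at −2.90 (0.928), ARA1 (SAKL0C10626g) in WT YPGly replicate 1, at −0.66 (0.850), SAKL0C01298g in WT YPGly replicate 3, at 2.80 (0.840), SAKL0C10934g in WT YPD replicate 1, at −0.86 (0.920), SAKL0C10956g in SEF1-VP16 YPGly replicate 3, at −4.13 (0.843), and JJJ2 (SAKL0C05456g) in SEF1-VP16 YPGly replicate 3, at −1.86 (0.859). They fell on 5 different arrays. None of the 4 groups had an array with an outlying offset between members and other genes.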

How the results depend on the processing

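The distance of the members' median from that of the other genes kept its direction for both medium effects and the strain effects under every alternative run, from −0.30 to −0.21 for the medium in WT and from −0.23 to −0.19 in SEF1-VP16. Some of these runs could not have changed the direction. Median centring shifts all genes of an array alike, and an array outside a contrast does not enter its difference. Members called for the strain effect on YPD numbered 6. With only the 8 arrays of that contrast 3 were called, EMI5, ESBP6 and SAKL0C01276g. By the methods' t-test 1 was called after Benjamini-Hochberg, ESBP6, and 6 without. Without the fold limit 20 were called, and 5 to 9 when single arrays were left out. On YPGly the count of 1 became 2 with median centring, array weights, only the 8 arrays or the unadjusted t-test, 0 with the dimmer probe or the adjusted t-test, 3 with the left-out genes added and 14 without the fold limit, and ran from 0 to 2 over single arrays left out. EMI5 was called there under median centring (adjusted p 0.0420), quantile normalization (0.0350), array weights (0.00146) and only the 8 arrays (0.0441). The interaction count of 2 became 4 with quantile normalization (2 higher and 2 lower, GPD1 and MPD2 being the added ones) and 6 with the left-out genes, and ran from 1 to 3 over single arrays. The medium counts became 312 in WT and 314 in SEF1-VP16 without the fold limit and otherwise lay within 1.5 times, at 185 to 195 and 176 to 192 over single arrays. The signal excess of 0.62 became 0.83 with the dimmer probe. SAKL0C06688g on YPGly reversed to 0.65 with normexp. Of 114 medium effects of named genes called in WT or SEF1-VP16, 98 kept their call under every alternative run, 16 lost it under 1 or more and 0 changed sign. The causes were not tested. Without WT YPGly replicate 1 or 3, any of SEF1-VP16 YPD replicates 1 to 3, or SEF1-VP16 YPGly replicate 1 or 3, 0 members were called for strain on YPGly, and without WT YPD replicate 3, 2. The interaction count was 1 without WT YPD replicate 1, WT YPGly replicate 1, 2 or 3, SEF1-VP16 YPD replicate 1, 2 or 3, or SEF1-VP16 YPGly replicate 2, 3 or 4.

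Same-numbered arrays were not taken as pairs, since the labels name nothing they share and not every pair correlated: their deviations from the group means correlated from −0.55 to 0.77 (median 0.13), above 0.1 in 13 of 24 pairs, against 22 of 72 pairs of unlike number (median −0.05), and 7 of 16 arrays correlated best with their own number. With the replicate number as a block the calls were 6 and 1 for strain on YPD and YPGly, 3 for the interaction, and 192 and 181 for the medium. The single call on YPGly was then EMI5 (adjusted p 0.0295) in place of SAKL0C06688g (0.0646), and MPD2 joined the interaction.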
